A study of Mus musculus with 27 samples.

Results

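Mouse embryonic stem cells lacking the m6A reader Ythdf2 (Ythdf2-/-) were set against wild type (WT) stem cells, with 2 poly(A) RNA libraries on each side out of 27 libraries in the series. The libraries were chosen by their genotype and cell type labels. Both lines have the KH2 background (C57BL/6 x 129/Sv) and were grown in serum with LIF, the cytokine that holds mouse stem cells undifferentiated. Stem cell lines lacking Ythdf1, Ythdf3, all 3 Ythdf readers (triple knockout) or the methyltransferase Mettl3 shared that background and medium, gave 2 libraries each and bring the stem cell set to 12. Which part of Ythdf2 was deleted, how many clones were used and whether replicates A and B were separate cultures is not stated in the labels, so p-values measure only the spread between these libraries, which may be technical. A change of genotype and a change that came with 1 line cannot be told apart in this design.

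N6-methyladenosine (m6A) is a methyl mark that the METTL3 complex sets on adenosines of mRNA, mostly near stop codons and in long exons. Ythdf2 is a cytoplasmic protein that binds this mark and is known for bringing marked mRNAs to the CCR4-NOT deadenylase, to decapping and to an endoribonuclease route, which shortens their life. Ythdf1 and Ythdf3 are close paralogs that bind the same mark. In stem cells the mark is known to lie on many mRNAs of pluripotency factors.

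The libraries were shallow, with 777785 and 862120 assigned counts in Ythdf2 knockout cells and 1099347 and 1111764 in WT cells. Depth therefore moved with genotype, and its part in the results was not tested. The gene with the most counts, Hsp90ab1, took a like share of the counts in every library, at 1634 to 1823 CPM (counts scaled to a common library total) across the 12 libraries, and the 100 most abundant genes held 6.09% to 6.75% of the counts. Replicates agreed below counting noise in all 6 stem cell groups (chi-square per gene 0.808 for Ythdf2 knockout, 0.715 for WT, with 1 being counting noise alone), so p-values may be too small. All 10 embryonic stem cell markers were tested and 0 of the 10 were called. Over all tested genes 1.91% were called, so 0 of 10 is near that share. The summed levels of the markers were 3791 and 3776 CPM in Ythdf2 knockout cells and 3572 and 3478 CPM in WT cells. These levels are after TMM scaling (a correction for composition).

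Ythdf2 mRNA itself had 14 and 9 counts in Ythdf2 knockout libraries, against 29 and 28 counts in WT libraries. Its level was 14.3 ± 5.39 CPM in knockout cells and 25.5 ± 0.821 CPM in WT cells (SD, n = 2 each). The groups did not overlap, as in 46.3% of all tested genes. The log2 change of -0.85 ± 0.29 (SE) was not called (edgeR quasi-likelihood test, adjusted p = 0.216). Set against the other single knockouts, the level was lower by a log2 difference of -1.17 ± 0.28 from the Ythdf1 knockout (edgeR, adjusted p = 0.0461) and of -1.38 ± 0.29 from the Ythdf3 knockout (edgeR, adjusted p = 0.0187). The triple knockout libraries, which should also lack the gene, had 23 and 22 counts, a mean of 33 CPM and a log2 change of 0.36 ± 0.24 over WT. Ythdf1 averaged 176 CPM in its own knockout and 176 CPM in WT cells, and Ythdf3 76.9 CPM in its own knockout and 69.5 CPM in WT cells, so whole-gene counts did not mark these lines. A count over the whole gene does not check a deletion that leaves part of the transcript. In Ythdf2 knockout cells the mRNAs of Ythdf1, Ythdf3 and Mettl3 were not called, with log2 changes of 0.01 ± 0.09, 0.12 ± 0.22 and -0.11 ± 0.10.

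Of 11951 genes tested, 228 were called at an adjusted p under 0.05 (1.91%), 100 rises (0.837%) and 128 falls (1.07%), while the median log2 change of all tested genes was 0.00. Most changes were small. The median was 0.61 among called rises and -0.84 among called falls, and 20 rises and 46 falls passed 2-fold. DESeq2, a second count test, called 11 of these genes and no others, 5 higher and 6 lower. They were Mest, Gkap1, Apela, Mt2, Fbxo15, Rbm26, Ndfip2, Grb10, Plagl1, Ptprtos and Gm17066. DESeq2 gave no adjusted p for 2317 tested genes, 30 of them called by edgeR, so it could not call these. Each library carried much of the count: leaving out Ythdf2 knockout B left 54 calls, Ythdf2 knockout A 104, WT A 104 and WT B 123, and 33 genes were called in every such fit. Of 48 named called genes 14 stayed called each time, namely Mest, Sept4, Pard6g, Dppa3, Fbxo15, Zmat4, Apol6, Ptprtos, Klf12, Hormad2, Plagl1, Mybl2, Lefty2 and Grb10.

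**Figure D1:**
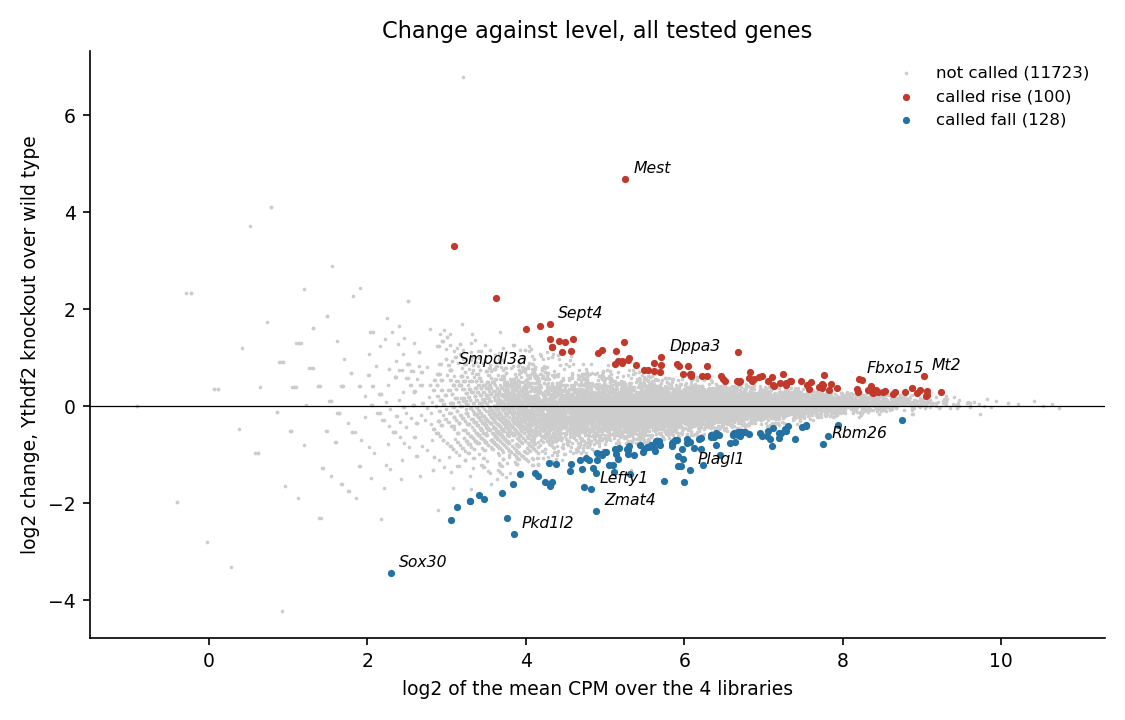
Each point is 1 of the 11951 tested genes, with the log2 of its mean CPM over the 4 libraries on the x axis and its log2 change in Ythdf2 knockout over wild type cells on the y axis; red points are the 100 called rises and blue points the 128 called falls. Mest stands alone at 4.68, and most called genes lie within 2 log2 units of 0.

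The largest called change among well-measured genes was in an imprinted gene. Mest (chromosome 6, 30723547 to 30748465, forward strand, mm10) encodes a hydrolase-like protein of mesoderm and is expressed from the paternal allele. It had 55 and 64 counts in Ythdf2 knockout libraries, against 3 and 3 in WT libraries, so both knockout libraries stood far above both WT libraries. The level was 72.8 ± 2.39 CPM in knockout cells and 2.69 ± 0.0197 CPM in WT cells (SD, n = 2 each), a log2 change of 4.68 ± 0.31 (edgeR, adjusted p = 8.93e-20). The ratio of pooled counts per total count was 26.7, with an exact 95% interval of 11.9 to 74.3 that covers counting error only. Copg2, which overlaps Mest on the opposite strand, had 25 and 49 counts in knockout libraries and 44 and 43 in WT libraries and was not called.

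Mest differed between the knockout lines. Counts were 4 and 6 in Ythdf1 knockout libraries and 1 and 4 in Ythdf3 knockout libraries, but 24 and 30 in triple knockout and 46 and 60 in Mettl3 knockout libraries. Compared directly, the Ythdf2 knockout exceeded the Ythdf1 knockout by a log2 difference of 3.69 (edgeR, adjusted p = 8.4e-17) and the Ythdf3 knockout by 4.24 (edgeR, adjusted p = 2.59e-15).

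Other imprinted genes fell. Plagl1, a zinc finger transcription factor expressed from the paternal allele, had 28 and 34 counts in Ythdf2 knockout libraries and 103 and 108 in WT libraries, a log2 change of -1.31 ± 0.17 (edgeR, adjusted p = 7.03e-08). Grb10, an adaptor that dampens insulin and growth factor signalling, had 30 and 30 counts in knockout libraries and 101 and 90 in WT libraries, a log2 change of -1.22 ± 0.16 (edgeR, adjusted p = 1.07e-06). In neither gene did the groups overlap, as in every called gene. Plagl1 was also lower than in the Ythdf1 and Ythdf3 knockouts, by log2 differences of -1.16 (edgeR, adjusted p = 7.02e-06) and -1.67 (edgeR, adjusted p = 1.69e-10), and Grb10 by -0.90 (edgeR, adjusted p = 0.00473) and -0.96 (edgeR, adjusted p = 0.0137). Plagl1 counts were 22 and 21 in Mettl3 knockout libraries and 72 and 80 in triple knockout libraries. Grb10 counts were 43 and 55 in Mettl3 knockout and 42 and 47 in triple knockout libraries. Its log2 changes over WT there, -0.35 ± 0.14 and -0.40 ± 0.15, were not called (edgeR, adjusted p = 0.119 and 0.0921).

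Of 45 imprinted genes tested, 2 rose and 3 fell (11.1% called, against 1.91% of all tested genes), with a median log2 change of 0.03. This list, like every gene list here, was written with earlier results of these data known, so such shares are descriptions only. The other fall was Ddc (-0.57 ± 0.13, edgeR, adjusted p = 0.0325), the decarboxylase of dopamine and serotonin synthesis, which neighbours Grb10 and overlaps a called gene on the opposite strand. The other rise was Mcts2 (0.53 ± 0.12, edgeR, adjusted p = 0.0248), a translation factor retrogene lying within H13, so reads of the pair can be split in counting. Ddc lost its call without Ythdf2 knockout A, Ythdf2 knockout B or WT B, and Mcts2 without any 1 of the 4 libraries. In the direct contrasts 4 of the 45 were higher and 2 lower than in the Ythdf1 knockout (1.09% of all tested genes were called). Against the Ythdf3 knockout 3 were higher and 2 lower (0.502% of all tested genes were called). Among the higher ones were Meg3 and Rian, maternally expressed noncoding RNAs of 1 cluster on chromosome 12. Meg3 had 161 and 185 counts in Ythdf2 knockout libraries and 179 and 207 in WT libraries, a log2 change of 0.29 that was not called (edgeR, adjusted p = 0.149). Its differences from the Ythdf1 and Ythdf3 knockouts had adjusted p = 6.91e-07 and 0.0137 (edgeR). Peg13, too low to be tested, had 0 and 0 counts in Ythdf2 knockout libraries and 8 and 11 in WT libraries. The 20 tested genes of DNA methylation and imprint upkeep, which include Dnmt1, Uhrf1, Zfp57 and Trim28, held 1 called gene, the rise of Dppa3.

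**Figure D2:**
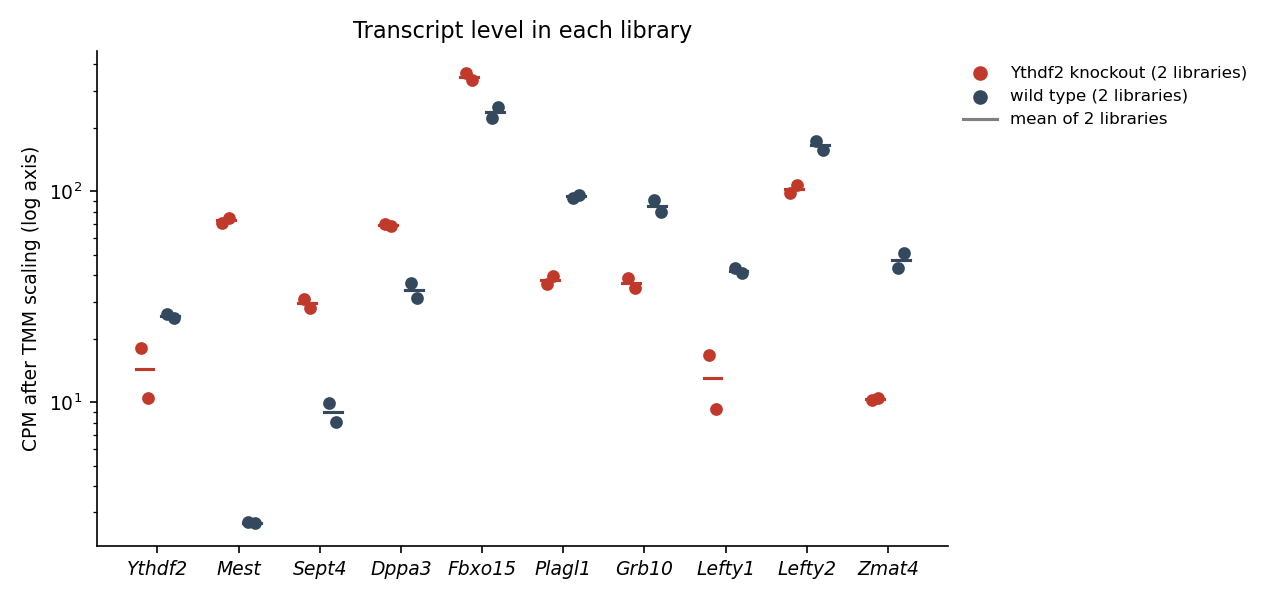
CPM of 10 genes in each library on a log axis, with 2 red points for Ythdf2 knockout and 2 dark points for wild type and a line at each mean. Mest is at 71.1 and 74.5 CPM in knockout libraries and 2.70 and 2.67 CPM in wild type libraries. The groups do not overlap for any of the 10 genes, as in all 228 called genes and in 46.3% of all tested genes.

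The m6A mark is set within a short motif whose commonest strong form reads GGACT in DNA letters. The GGACT nearest the stop codon is given for 2 of the 15 largest named rises and 2 of the 15 largest named falls, with 12 bases on either side, from the longest coding transcript of each gene in GENCODE M21 (GRCm38), to show the motif in both settings, coding sequence and 3′ UTR. The 4 genes were picked after their values were seen, and Irf8, Usp17lc, Cldn7 and Gkap1, also among the largest rises, held 0 GGACT in their longest coding transcript. Capitals mark the motif, each line runs 5′ to 3′, and methylation was not measured here.
Mest: cccagtttctgtGGACTttattaaaatat
Sept4: cgatgaggacgaGGACTtcaaattacagg
Lefty1: gctggacctcaaGGACTatggagctcaag
Plagl1: gtttcttttcagGGACTcgtctataagaa
The Mest and Plagl1 motifs start 399 and 525 bases after the last coding base, in the 3′ UTR, and those of Sept4 and Lefty1 lie 447 and 369 bases before it, in the coding sequence. Over whole transcripts the median density was 1.12 GGACT per kb in 97 called rises, 0.975 in 117 called falls and 1.05 in 11056 tested genes with a coding transcript. In the 99 of these falls outside chromosome 14 beyond 99 Mb, a segment described below, the median density was 1.04. The share of transcripts with any GGACT was 83.5% in rises, 90.6% in falls and 92.7% in all tested genes. Median transcript length was 2235 bases in rises, 3416 in falls and 3064 in all tested genes. These are descriptions without a test, and longer transcripts have more chances to hold the motif.

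The 15 largest named rises were, Mest apart, genes of low to moderate level with mixed functions. Sept4, a septin of the cytoskeleton, had 24 and 24 counts in Ythdf2 knockout libraries and 11 and 9 in WT libraries (log2 change 1.70 ± 0.33, edgeR, adjusted p = 0.000693). Irf8, a transcription factor of myeloid cells, had 17 and 29 counts in knockout libraries and 9 and 15 in WT libraries (1.38 ± 0.32, edgeR, adjusted p = 0.00858). Irf8 was also higher than in the Ythdf1 knockout, by a log2 difference of 2.07 (edgeR, adjusted p = 0.000153), while its difference of 1.15 from the Ythdf3 knockout was not called (edgeR, adjusted p = 0.219), and its log2 change was -0.69, 0.22, -0.18 and -0.07 in the Ythdf1, Ythdf3, triple and Mettl3 knockouts against the same WT libraries. Of 7 blood cell markers 2 were measured, with summed levels of 119 and 151 CPM in knockout cells and 150 and 160 CPM in WT cells, and Gata1 had 1 and 1 counts in knockout and 1 and 0 in WT libraries. Gkap1, an anchor of cGMP-dependent protein kinase, had 110 and 118 counts in knockout libraries and 71 and 72 in WT libraries (1.12 ± 0.19, edgeR, adjusted p = 0.0037). Ubap1l, Ffar2 (a short-chain fatty acid receptor), Kcnn2 (a calcium-activated potassium channel), Cpeb1 (which binds cytoplasmic polyadenylation elements), Fxyd2 (a sodium pump regulator) and Epm2a (the glycogen phosphatase laforin) rose by 1.12 to 1.65 log2 units. Irf8 lost its call without Ythdf2 knockout B or WT A, Ubap1l without Ythdf2 knockout B, and Gkap1, Cpeb1, Fxyd2 and Epm2a without any 1 of the 4 libraries. Ffar2 lost it without Ythdf2 knockout B or either WT library, and Kcnn2 without either knockout library or WT B. Many of these rises were shared. Over WT, Kcnn2 was a called rise in the Ythdf1, Ythdf3, triple and Mettl3 knockouts (1.61, 1.26, 1.92 and 1.45). Gkap1 and Epm2a were called rises in the Ythdf1, triple and Mettl3 knockouts, and Ubap1l in the Ythdf3, triple and Mettl3 knockouts. Sept4 and Ffar2 were called rises in the triple and Mettl3 knockouts and Cpeb1 in the triple knockout, but Fxyd2 in no other line.

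The 15 largest named falls ran from -1.26 to -2.16. Zmat4, a zinc finger gene, had 8 and 9 counts in Ythdf2 knockout libraries and 48 and 57 in WT libraries (-2.16 ± 0.29, edgeR, adjusted p = 3.66e-07). Counts were also low in the other lines, with 11 and 10 in Ythdf1 knockout, 1 and 7 in Ythdf3 knockout, 0 and 1 in triple knockout and 0 and 1 in Mettl3 knockout libraries. Agps, which makes the first ether lipid in peroxisomes, had 7 and 8 counts in knockout libraries and 36 and 29 in WT libraries (-1.65 ± 0.33, edgeR, adjusted p = 0.00162). It was the 1 called gene of 19 tested in ether lipid synthesis and peroxisomal import (5.26%, against 1.91% of all tested genes). Decr1, of mitochondrial oxidation of unsaturated fatty acids, had 6 and 10 counts in knockout libraries and 31 and 34 in WT libraries (-1.56 ± 0.33, edgeR, adjusted p = 0.00296). Apol6, Msln, Plekha2, Foxd1, Hormad2 (meiotic chromosome synapsis), Enah (an actin regulator) and Pou4f2 fell by amounts between those of Pou4f2 (-1.26) and Apol6 (-1.67). All of them also had negative log2 changes over WT in every other knockout line. Foxd1, Hormad2 and Pou4f2 were called falls in each line, and Apol6, Msln, Plekha2 and Enah in some. In the Ythdf1, Ythdf3, triple and Mettl3 knockouts the change was -2.22, -2.21, -2.12 and -3.55 for Foxd1. For Pou4f2 it was -1.41, -2.15, -2.93 and -3.79. Agps and Enah lost their call without either knockout library or WT A, Decr1 without Ythdf2 knockout A, Foxd1 without Ythdf2 knockout B, Pou4f2 without Ythdf2 knockout A or WT A, and Msln and Plekha2 without any 1 of the 4. Ptprtos, a long noncoding RNA, fell by 1.54 log2 units and was lower than in the Ythdf1 knockout by a log2 difference of -1.19 (edgeR, adjusted p = 0.000217). Its difference of -0.64 from the Ythdf3 knockout was not called (edgeR, adjusted p = 0.565). Over WT its log2 change was -0.35, -0.90, -0.08 and -3.24 in the Ythdf1, Ythdf3, triple and Mettl3 knockouts.

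The other lines were measured against the same 2 WT libraries, which enter every such value. Of the 30 largest named changes, 6 differed from the Ythdf1 knockout and 4 from the Ythdf3 knockout when the lines were compared directly. The 30 were chosen by their change in the same Ythdf2 knockout libraries, so the choice favoured such differences. In all, 130 genes were called against the Ythdf1 knockout (1.09%), 42 higher and 88 lower in Ythdf2 knockout cells, and 60 against the Ythdf3 knockout (0.502%), 26 higher and 34 lower.

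**Figure D3:**
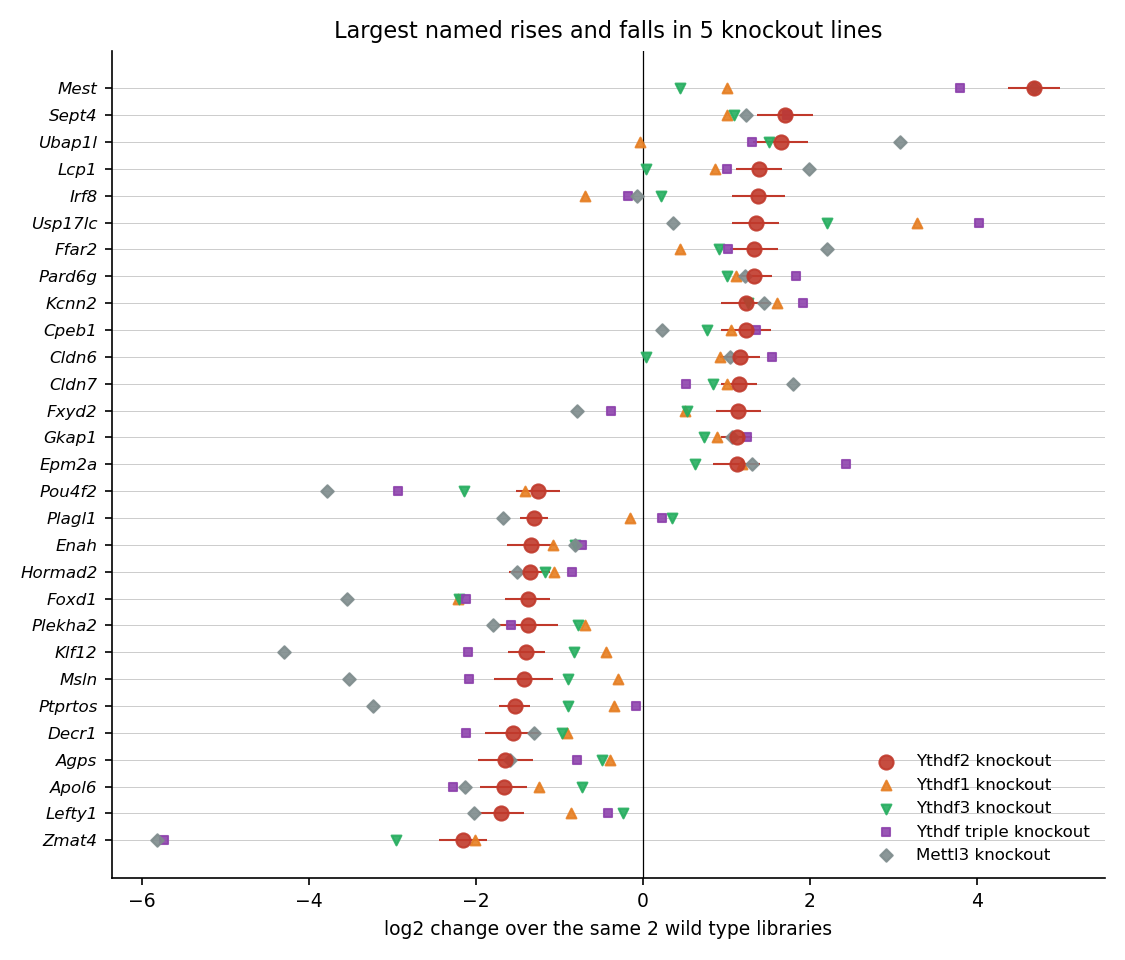
Log2 change over the same 2 wild type libraries for the 15 largest named rises and 14 of the 15 largest named falls, with Ythdf2 knockout as red circles (bars are SE) and the other knockout lines as smaller symbols. Mest and Plagl1 lie away from the Ythdf1 and Ythdf3 knockouts, and Irf8 from the Ythdf1 knockout; the Mettl3 knockout value of Mest, 4.68, is hidden behind the red circle.

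Of 30 naive pluripotency genes tested, 4 rose and 2 fell (20% called, against 1.91% of all tested genes), with a median log2 change of 0.04. The list was written with earlier results of these data known, so the share is a description only. Dppa3, a maternal factor that protects methylated DNA in the early embryo, had 54 and 59 counts in Ythdf2 knockout libraries and 41 and 35 in WT libraries (1.02 ± 0.17, edgeR, adjusted p = 0.000441), and was lower than in the Ythdf1 knockout by a log2 difference of -0.83 (edgeR, adjusted p = 6.89e-05). Fbxo15, an F-box gene known as a stem cell reporter locus, rose by 0.56 ± 0.08 (edgeR, adjusted p = 8.84e-07), Tdh, threonine dehydrogenase, by 0.31 ± 0.06, and Dppa5a by 0.27 ± 0.06. Mybl2 and Jam2 fell by 0.65 and 0.50 log2 units. Most of these calls were shared with other lines. Over WT, Fbxo15 was a called rise in every other knockout line, and Dppa3 in the Ythdf1, triple and Mettl3 knockouts. Dppa5a was a called rise in the Ythdf1 and Ythdf3 knockouts and a called fall in the Mettl3 knockout. Mybl2 and Jam2 were called falls in the Ythdf1, triple and Mettl3 knockouts. Tdh was a called rise in no other line. Fbxo15 overlaps Timm21, which also rose, on the opposite strand. Fbxo15 and Tdh lie in chromosome segments described below whose genes shifted together. Tdh lost its call without Ythdf2 knockout A, Dppa5a without either knockout library or WT A, and Jam2 without Ythdf2 knockout B or WT B. Pou5f1 had 640 and 722 counts in knockout libraries and 858 and 884 in WT libraries, a log2 change of 0.10 ± 0.05, and Nanog had 434 and 498 against 547 and 554, a log2 change of 0.21 ± 0.07 with adjusted p = 0.0983 (edgeR).

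Of 15 formative and primed genes, 4 were called (26.7%, against 1.91% of all tested genes), with a median log2 change of 0.06. This list and the pathway lists below were also written with earlier results of these data known. The tight junction genes Cldn6 (1.16 ± 0.24) and Cldn7 (1.15 ± 0.22) and the transcription factor Otx2 (0.94 ± 0.22) rose, and Zic2 (-0.54 ± 0.11) fell. Zic2 lies in the segment at the end of chromosome 14. Over WT, Cldn6 was also a called rise in the Ythdf1, triple and Mettl3 knockouts, and Cldn7 in the Ythdf1 and Mettl3 knockouts. Zic2 was also a called fall in the Ythdf1 and triple knockouts, while Otx2 was called in no other line. Of 17 Nodal pathway genes 2 were called (11.8%), the falls of both secreted antagonists. Lefty1 had 13 and 8 counts in Ythdf2 knockout libraries and 48 and 46 in WT libraries (-1.70 ± 0.27, edgeR, adjusted p = 2.61e-05), and Lefty2 had 76 and 92 against 192 and 176 (-0.68 ± 0.10, edgeR, adjusted p = 9.39e-05). The ligand Nodal, with 134 and 139 counts in knockout libraries and 190 and 184 in WT libraries, had a log2 change of 0.00. Lefty1 was lower than in the Ythdf3 knockout by a log2 difference of -1.46 (edgeR, adjusted p = 0.0158), and its difference from the Ythdf1 knockout was not called. Over WT, Lefty1 was also a called fall in the Ythdf1 (-0.86 ± 0.22) and Mettl3 knockouts (-2.02 ± 0.29). In the Ythdf3 (-0.24 ± 0.22) and triple knockouts (-0.42 ± 0.22) Lefty1 was not called. Lefty2 was a called fall in the Ythdf1, triple and Mettl3 knockouts (-0.55, -0.63 and -0.47) but not in the Ythdf3 knockout (-0.30). Among 12 BMP pathway genes Id2 rose (0.85 ± 0.19, 8.33% called), and among 19 genes of FGF-ERK signalling and immediate-early response (5.26% called) Myc fell (13 and 15 counts in knockout libraries, 44 and 39 in WT libraries, -1.11 ± 0.26, edgeR, adjusted p = 0.0154). Over WT, Myc was also a called fall in the Ythdf1, triple and Mettl3 knockouts (-1.54, -1.21 and -2.57) but not in the Ythdf3 knockout (-0.79). Lefty1 and Zic2 lost their call without Ythdf2 knockout B, Cldn6 without Ythdf2 knockout B or WT B, and Cldn7 without Ythdf2 knockout A or WT A. Otx2 lost it without either knockout library or WT B, Myc without either knockout library or WT A, and Id2 without any 1 of the 4 libraries.

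Of 14 trophoblast genes 14.3% were called, against 1.91% of all tested genes. The keratin Krt7 rose (60 and 78 counts in Ythdf2 knockout libraries, 60 and 45 in WT libraries, 0.84 ± 0.17) and Cdx2 fell (4 and 5 counts in Ythdf2 knockout libraries, 22 and 21 in WT libraries, -1.78 ± 0.44). Of 12 neural genes (8.33% called) Ncam1 fell (-1.91 ± 0.48). Cdx2 was also a called fall over WT in the Ythdf1, Ythdf3, triple and Mettl3 knockouts (-2.74, -1.86, -2.35 and -4.54). Cdx2 lost its call without any 1 of the 4 libraries, Ncam1 without either knockout library or WT A, and Krt7 without Ythdf2 knockout B or WT B. Of 10 primitive endoderm and 9 primitive streak and mesoderm genes 0 were called by edgeR; the best measured, the matrix gene Sparc, averaged 345 ± 5.55 CPM in knockout cells and 302 ± 6.02 CPM in WT cells (SD, n = 2 each). Of 4 tested fibroblast feeder markers 3 were called falls, against 1.07% of all tested genes. They were Col1a1 (16 and 21 counts in knockout libraries, 58 and 49 in WT libraries), Vim and Fbln1. Thy1 had 7 and 8 counts in knockout and 8 and 3 in WT libraries (0.88 ± 0.51, not called). The summed level of the feeder list's 7 measured markers was 177 and 178 CPM in knockout cells and 273 and 265 CPM in WT cells. Most of it was Vim, at 119 and 115 CPM in knockout cells and 163 and 157 CPM in WT cells. Col1a2, a defining collagen, had 1 and 0 counts in knockout and 2 and 2 in WT libraries, and 5 of the list's 12 markers were not analysed here. The part of other cells in the results was not tested, and in bulk RNA fewer cells of a type and less RNA per cell cannot be told apart.

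Genes of the 2-cell stage, which a small share of stem cells switches on at any time, differed in level between the reader knockouts. Against WT, 1 of 28 tested genes was a called rise (3.57%, against 0.837% of all tested genes). It was Usp17lc (27 and 22 counts in Ythdf2 knockout libraries, 14 and 12 in WT libraries, 1.35 ± 0.28, edgeR, adjusted p = 0.00709), a call lost without Ythdf2 knockout A or WT B. The list had 26 positive values, against 5987 among all 11951 tested genes, and a median log2 change of 0.85. Zscan4c, the marker for which this state is best known, had 15 and 22 counts against 10 and 11 and was not called (1.25 ± 0.32, edgeR, adjusted p = 0.0505; DESeq2, adjusted p = 0.944). The filter of 20 CPM, added after the data were seen, gave 0.0482 (edgeR, adjusted p). The WT levels of Zscan4c, 9.01 and 9.81 CPM, lay under that filter. In the direct contrasts 21 of the 28 were lower in Ythdf2 knockout cells than in Ythdf1 knockout cells, where the list's median log2 change over WT was 3.29. Against Ythdf3 knockout cells, where that median was 2.10, 7 were lower. Of all tested genes, 1.09% were called against the Ythdf1 knockout and 0.502% against the Ythdf3 knockout, in either direction. Several of these genes belong to families of near-identical copies, so counts of single members are uncertain.

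No gene was called in the lists tied to the known work of Ythdf2, which at 1.91% of all tested genes is near the background for lists of this size. These were the 8 m6A writer genes, the 5 YTH readers, 12 other readers and erasers, 17 CCR4-NOT deadenylase genes, 24 genes of decapping and 5′ to 3′ decay, 12 genes of the endoribonuclease route and 8 transcripts described as YTHDF2 targets in other cells. Their medians lay between -0.05 and 0.03. Among the described targets Son had 286 and 282 counts in Ythdf2 knockout libraries and 384 and 399 in WT libraries (log2 change -0.01 ± 0.07), and Crebbp 139 and 137 against 172 and 200 (0.02 ± 0.10). The lists of p53 targets (27 genes), ATF4 targets (21), LIF and JAK-STAT (15), germline genes (20) and retinoic acid synthesis and response (12) also held 0 calls, and among 20 interferon genes the nucleic acid sensor Zbp1 fell (-0.84 ± 0.20), a call lost without Ythdf2 knockout B or either WT library.

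The called genes were unevenly spread over the genome, a pattern seen after their values were known and given without a test. Chromosome 14 held 22 of the 128 falls and 12 of the 100 rises among its 396 tested genes, and the positions formed runs. From Mzt1 to Tmtc4, the last tested gene of the chromosome (99034544 to 122984035, mm10), 49 of 50 tested genes had a negative log2 change, 48 had both Ythdf2 knockout libraries below both WT libraries (over all tested genes the groups did not overlap in 46.3%, and 1.07% were called falls), and 19 were called falls (7 without Ythdf2 knockout B, 10 without Ythdf2 knockout A, 12 without WT A). Their median log2 change was -0.57. Rbm26, an RNA-binding protein, had 129 and 127 counts in knockout libraries and 294 and 309 in WT libraries (-0.78 ± 0.09, edgeR, adjusted p = 2.68e-09); Gm17066 overlaps it on the same strand. Ndfip2, an adaptor of Nedd4 ubiquitin ligases, had 35 and 38 against 116 and 115 (-1.21 ± 0.15), Mycbp2, a ubiquitin ligase, 29 and 29 against 91 and 95 (-1.23 ± 0.18), and Uchl3, a deubiquitinase, 142 and 145 against 309 and 294 (-0.62 ± 0.08). The named fall Klf12 lies in the same run, as do Zic2 and the exonuclease Dis3.

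**Figure D4:**
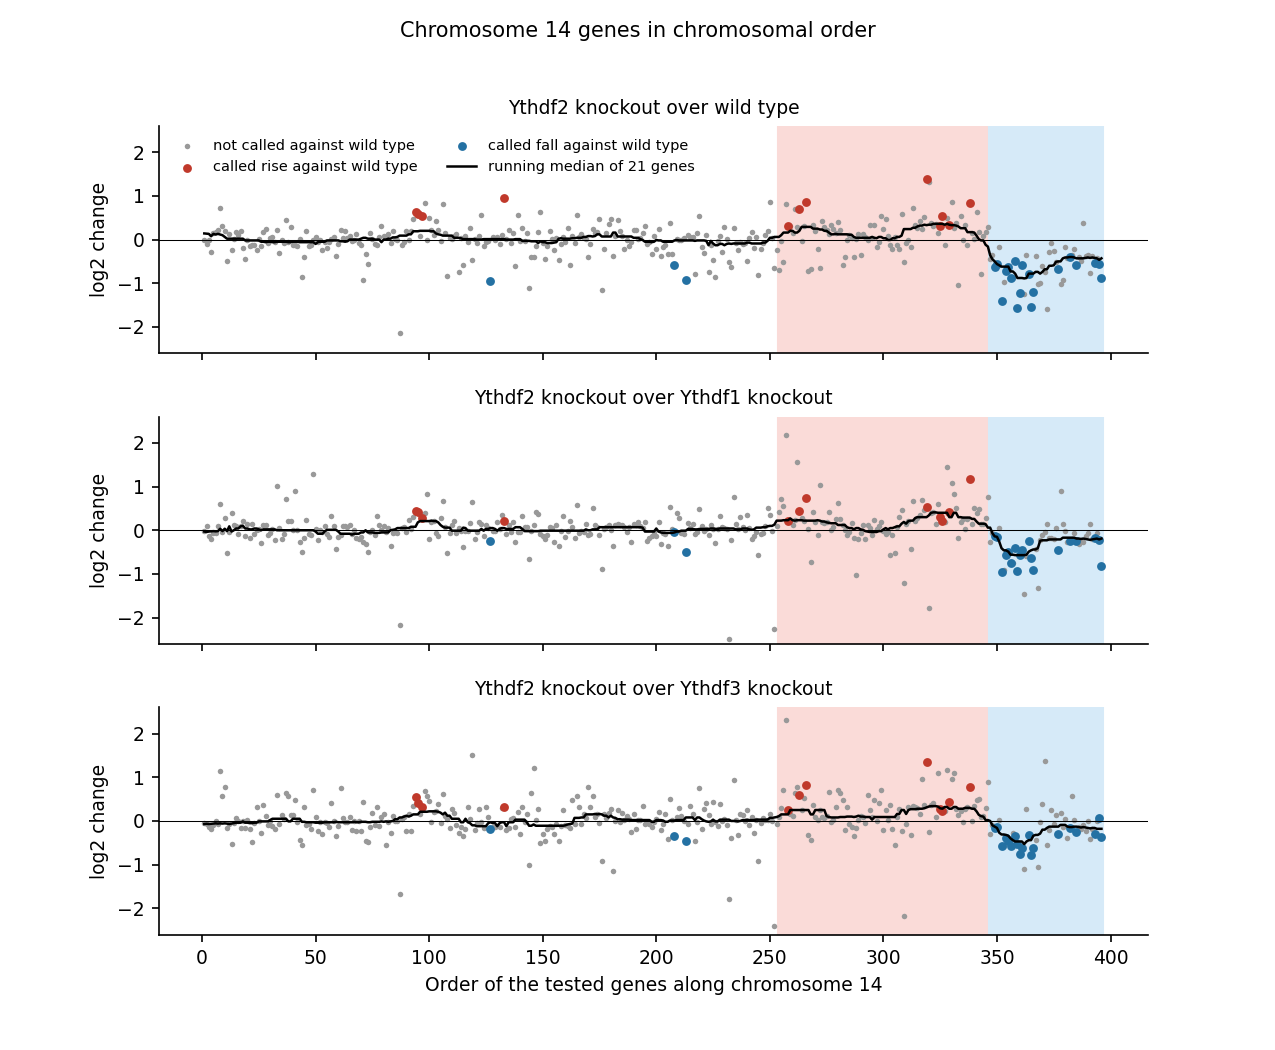
Log2 change of the 396 tested chromosome 14 genes in chromosomal order, Ythdf2 knockout over wild type, over Ythdf1 knockout and over Ythdf3 knockout from top to bottom; red and blue points are called rises and falls against wild type, the line is a running median and values past the axis are drawn at its edge. The blue band holds the 50 genes with a median of -0.57 against wild type, and the pink band the 92 genes with a median of 0.17.

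The run before it went the other way. From Ctsb to Sugt1 (63122462 to 79635196) 63 of 92 tested genes had a positive log2 change, 45 had both knockout libraries above both WT libraries and 16 below (66.3% without overlap, against 46.3% of all tested genes), and 8 were called rises (4 without either Ythdf2 knockout library). They were Tdh, Kif13b, Extl3, Lcp1, Tpt1, Gtf2f2, Tsc22d1 and Rgcc. The genes of this run made up 0.733% and 0.716% of the counts in Ythdf2 knockout libraries, 0.607% to 0.638% in the other 8 knockout libraries and 0.631% and 0.622% in WT libraries. The genes of the run at the end of the chromosome made up 0.404% and 0.388% in Ythdf2 knockout libraries, 0.346% to 0.474% in the other knockout libraries and 0.560% and 0.550% in WT libraries, so WT was the highest of the 6 groups there. The median log2 difference of the end run was -0.23 from the Ythdf1 knockout and -0.21 from the Ythdf3 knockout, with 5 and 1 genes called.

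Another run lay on chromosome 18. Beyond 80 Mb of it, 19 of 21 tested genes had a positive log2 change and 9 were called rises (3 to 5 without 1 library), among them Fbxo15, Cyb5a, Txnl4a and the polarity gene Pard6g (45 and 42 counts in Ythdf2 knockout libraries, 21 and 26 in WT libraries, 1.33 ± 0.21, edgeR, adjusted p = 6.68e-05). Their share of counts was 0.215% and 0.209% in Ythdf2 knockout libraries, 0.207% to 0.245% in the other knockout libraries and 0.156% and 0.16% in WT libraries. The median log2 difference from the Ythdf3 knockout was 0.00. The 3 runs held 36 of the 228 calls, or 15.8%, and 22.1% of their 163 tested genes were called, against 1.63% of the other 11788. Of 248 stretches of 10 Mb with at least 10 tested genes, 8 had a median log2 change past 0.2 in either direction. Of the 8, 5 were in these runs, and 1 held Grb10 and Ddc on chromosome 11 (median -0.29, and -0.31 and -0.20 in the Ythdf1 and Ythdf3 knockouts over WT). Another, from 60 to 70 Mb of chromosome 15, held Myc (median -0.30, and -0.30 and -0.36 in those knockouts). DNA copy number was not measured, and its part in these runs was not tested. On chromosome Y the gene Eif2s3y had 1 and 4 counts in knockout libraries and 16 and 14 in WT libraries (-2.08 ± 0.53, edgeR, adjusted p = 0.0234). Its mean level was 2.97 CPM in Ythdf2 knockout, 2.19 in Ythdf1 knockout, 3.49 in Ythdf3 knockout, 63.5 in triple knockout and 193 in Mettl3 knockout cells, against 13.4 CPM in WT cells, so the lines differed in Y-linked expression.

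**Figure D5:**
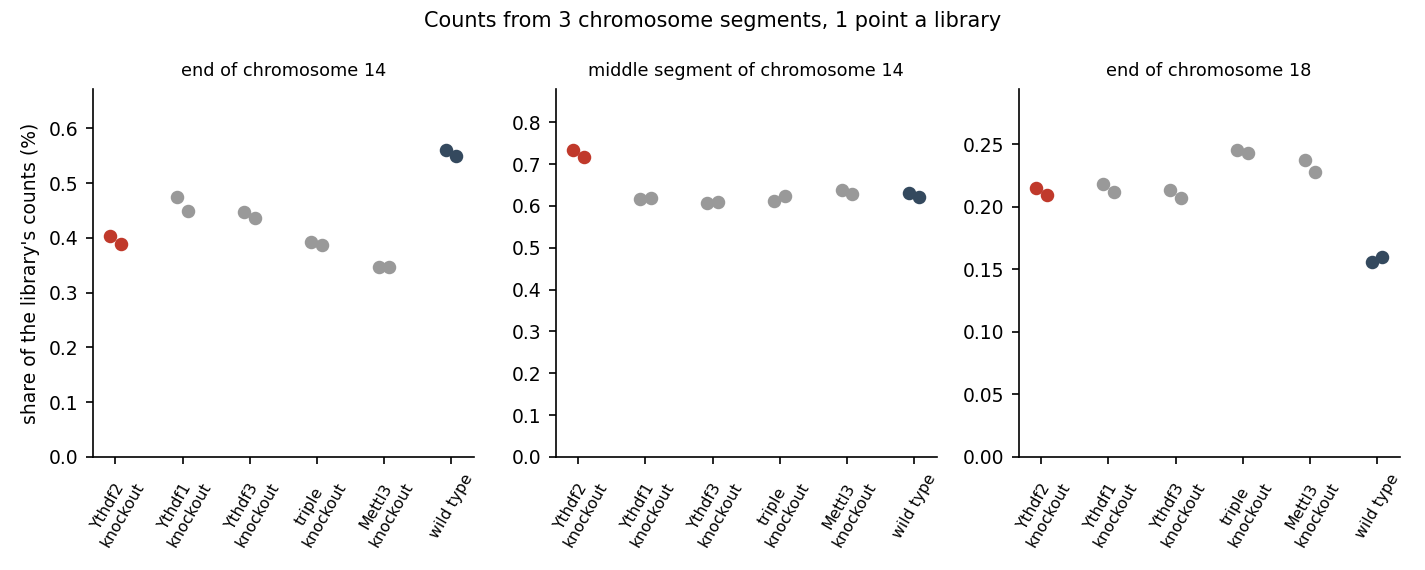
Percent of each library's counts from the tested genes of the 3 runs, 1 point a library, with Ythdf2 knockout in red on the left, the other knockout lines in grey and wild type in dark on the right. Wild type is highest at the end of chromosome 14 and lowest at the end of chromosome 18, and the Ythdf2 knockout is highest in the middle segment of chromosome 14.

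Outside these runs several called genes differed from both other single knockouts, and were picked after their values were seen. Pgk1, a glycolytic kinase, had 62 and 99 counts in Ythdf2 knockout libraries and 201 and 189 in WT libraries (-0.82 ± 0.11, edgeR, adjusted p = 3.66e-07) and was lower than in the Ythdf1 and Ythdf3 knockouts by log2 differences of -0.70 and -0.67 (edgeR, adjusted p = 0.000112 and 0.00473). The metallothionein Mt2 had 455 and 576 counts against 394 and 515 (0.63 ± 0.09, edgeR, adjusted p = 6.21e-05) and was higher by 0.38 and 0.56 (edgeR, adjusted p = 0.0192 and 0.00404). The anti-apoptotic gene Bcl2l1 rose by 0.45 ± 0.08 and differed by 0.49 and 0.45, and Myh9, nonmuscle myosin, fell by 0.68 ± 0.10 and differed by -0.78 and -0.60.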

How the data were processed

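The authors deposited raw read counts per gene for each library, from which every value was computed; their own fold changes and p-values were not used. Per the submitters' processing notes, CASAVA 1.8.2, cutadapt, STAR 2.4.2a and DESeq2 were used with mm10; for the counter, the strand setting and any removal of duplicates, nothing is given in the sources used here. Libraries were made from poly(A) RNA with ScriptSeq v2, per the labels' protocols. All 12 stem cell columns matched a sample, and 0 were left over.

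In R 4.3.3, edgeR 4.0.16 (TMM, filterByExpr, robust quasi-likelihood F test) was fitted to 12 stem cell libraries; 11951 of 14006 genes passed the filter, and a call is an adjusted p (Benjamini-Hochberg, over every tested gene) under 0.05. CPM is after TMM scaling. SEs are the log2 change over the root of F. DESeq2 1.42.0 was an alternative. Counts of 11951 genes in all 12 stem cell libraries were simulated with the dispersion fitted to these data. Known changes were put into the Ythdf2 knockout, in genes with an average log2 CPM of at least 4. Against WT, edgeR found 86 of 100 genes changed 2-fold and 98 of 100 changed 4-fold, with 6 false calls. DESeq2 found 49 and 92, with 1 false call. The simulation cannot give error rates for genes of lower level, or for real libraries that are technical replicates. Positions came from GENCODE M21, which held 96.2% of symbols.

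Named genes are Ythdf1, Ythdf2, Ythdf3, Mettl3, the 15 largest called changes each way among genes whose mean log2 CPM reached 4 and whose groups did not overlap (predicted, clone, pseudogene, mitochondrial and Y-linked symbols and Xist left out), every called list member, and the 2 members of smallest p in lists with fewer than 2 calls. Genes given outside this rule were chosen after their values were seen. The genes, lists and comparisons were chosen with earlier results of these data known. Intervals cover counting error only. Alternatives were RLE scaling, no filter, filters of 5 CPM and, added after the data were seen, 20 CPM in 2 libraries, a fit of the compared groups alone, DESeq2, the replicate block and leaving out each library. Results of 1 named gene are not reported here.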

Additional observations from a re-analysis of the deposited data

Results flagged for a closer look

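Several named changes against wild type differed from another single reader knockout when the 2 lines were compared directly. Those genes were named for their change in the same Ythdf2 knockout libraries, so the choice favoured differences in the direction of that change. Against the Ythdf1 knockout, the log2 difference (Ythdf2 minus Ythdf1 knockout, edgeR, adjusted p under 0.05) was 3.69 for Mest, 2.07 for Irf8, 1.69 for Ubap1l and 0.62 for Mcts2, all higher in Ythdf2 knockout cells. It was -1.93 for Usp17lc, -1.19 for Ptprtos, -1.16 for Plagl1, -0.90 for Grb10, -0.83 for Dppa3 and -0.39 for Fbxo15, all lower in Ythdf2 knockout cells. Against the Ythdf3 knockout it was 4.24 for Mest, 1.35 for Lcp1 and 1.31 for Krt7, and -1.67 for Plagl1, -1.46 for Lefty1 and -0.96 for Grb10. Mest, Plagl1 and Grb10 thus differed from both lines. Usp17lc, Dppa3 and Fbxo15 rose over wild type, yet by less than in the Ythdf1 knockout.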

How the results depend on the processing

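The libraries hold 612598 to 1111764 counts each, so in genes of few counts only large changes could be called. The count of 228 calls was 228 to 247 under RLE scaling, no filter, a filter of 5 CPM in 2 libraries (planned as stricter, but looser, with 13796 genes kept), a filter of 20 CPM added after the data were seen (10673 kept, 230 called, 218 of them among the 228), a fit of the compared groups alone and the replicate block; DESeq2 gave 11. The replicate block gave 242, 133 and 62 calls in the 3 comparisons; the letters correlated at 0.0335 between the Ythdf2 knockout and wild type and do not pair the libraries. Without 1 library the 228 ran from 54 (Ythdf2 knockout B left out) to 123, being 104 without Ythdf2 knockout A and 104 without wild type A, and 33 genes were called in every such fit. Against the Ythdf1 knockout the 130 calls became 32 with DESeq2 and 68 to 96 without 1 library; against the Ythdf3 knockout the 60 became 2 with DESeq2 and 11 to 28. Called genes in the 3 chromosome runs, recounted after the data were seen, were 19, 8 and 9, and 3, 0 and 1 with DESeq2; without 1 library they ran from 7 to 15 at the end of chromosome 14, from 4 to 7 in its middle segment and from 3 to 5 on chromosome 18. Median log2 changes of the end of chromosome 14 then stayed between -0.59 and -0.48. Of 48 named called genes, 14 were called without each library in turn, among them Mest, Plagl1, Grb10, Zmat4, Dppa3 and Lefty2, while 18 to 28 lost their call in single fits; Lefty1, Agps and Irf8 were among those not called in every fit. None changed sign.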

Other observations

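Gm8923, a predicted gene, had 27 and 0 counts in Ythdf2 knockout libraries and 0 and 0 in wild type libraries, so its signal came from 1 library. Rhox5, an X-linked homeobox gene, had 79 and 83 counts in Ythdf2 knockout libraries and 66 and 58 in wild type libraries (log2 change 0.83 ± 0.13, edgeR, adjusted p = 0.000379). Apela, which encodes the stem cell peptide hormone ELABELA, had 210 and 223 counts against 187 and 189 (0.65 ± 0.08, edgeR, adjusted p = 1.99e-07). Ndrg1, a stress-responsive gene, had 15 and 17 counts in Ythdf2 knockout libraries and 50 and 51 in wild type libraries (-1.20 ± 0.23, edgeR, adjusted p = 0.00208).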
